A study of Ovis aries with 6 samples.

Results

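Transcripts of the prolactin receptor pathway were followed in the somatic cells of sheep milk, in the same 3 ewes on a control diet and on a diet with extruded linseed. The genes were chosen by symbol: the prolactin receptor (PRLR), its kinase JAK2, and the transcription factors STAT5A and STAT5B. Of these 4 names, 3 matched the deposited table, through 4 of its 49705 transcripts: 1 of JAK2, 1 of STAT5A and 2 of STAT5B. PRLR matched no row and is not analysed here. Only 31.9% of the transcripts received a symbol, so further transcripts of these genes may stand in the table unnamed. Of the 4 transcripts, 3 passed a mean of at least 1 RPKM (reads for each kilobase of a transcript, relative to all reads of the library) over the 6 libraries, as did 15891 transcripts of the whole table. JAK2 and STAT5A were lower with linseed in 3 of 3 ewes and STAT5B in 2 of 3, and 0 of the 3 tested transcripts passed limma's adjusted p of 0.05, as did 0% of all transcripts tested.

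The animals were Comisana ewes described as at 90 days of lactation. The control ration (3 libraries) was hay of grass plus a commercial concentrate and lasted 3 weeks. The linseed ration (3 libraries) followed for another 3 weeks and was grass, hay and a concentrate of which extruded linseed made up 20% of the dry matter. Cells were pelleted from 250 ml of milk of each ewe, so a library is the mixture of epithelial cells and leukocytes shed by 1 animal, with no sorting. All ewes received linseed second, so diet and time between samplings cannot be told apart.

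Prolactin drives milk synthesis in the mammary epithelium. Its receptor has no kinase of its own and relies on JAK2, a tyrosine kinase bound to its intracellular tail, which phosphorylates STAT5 when prolactin brings receptors together. STAT5A and STAT5B are close paralogs that then enter the nucleus and switch on casein and whey protein genes; STAT5A is the form best known for its part in mammary development and lactation. The same kinase and factors also serve growth hormone, erythropoietin, interleukin and interferon receptors, so leukocytes express them as well. These are messenger RNA values and say nothing of STAT5 phosphorylation.

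The libraries held between 4941935 reads (linseed sheep 1) and 22644050 reads (control sheep 1), as solved from the steps of the deposited RPKM values. Milk protein genes took 48.1%, 36.0% and 4.44% of the reads in control sheep 1, 2 and 3, and 30.3%, 23.7% and 1.28% in linseed sheep 1, 2 and 3. Both libraries of sheep 3 therefore stood apart, with few milk protein reads and, as given below, high leukocyte markers. An RPKM value is a share of all mapped reads, so a gene's level also depends on how many reads the caseins take. The bulk values cannot tell fewer cells of a type from less RNA per cell.

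In every ewe JAK2 was lower on linseed than on the control ration. Its adjusted p did not pass 0.05, at 0.329 in the limma fit without a block and 0.0983 with the sheep as a block. The JAK2 transcript (XM_004004357.2, 4850 nt) had 7.07, 3.04 and 15.7 RPKM in control sheep 1, 2 and 3, and 0.918, 1.72 and 3.87 RPKM in linseed sheep 1, 2 and 3. The linseed values lay below the paired control value in every ewe, while the groups overlapped, because linseed sheep 3 exceeded control sheep 2. The group means were 8.60 ± 6.46 RPKM (SD, n = 3) in controls and 2.17 ± 1.53 RPKM with linseed.

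Within each ewe, the control RPKM of JAK2 was 7.71, 1.76 and 4.05 times the linseed value in sheep 1, 2 and 3. Counting error was small beside this spread: the transcript had 777, 130 and 807 reads in the control libraries and 22, 50 and 374 with linseed. The thinnest of these, 22 reads in linseed sheep 1, allowed 0.575 to 1.39 RPKM (exact Poisson 95% interval, counting error only), all below the 7.07 RPKM of the same ewe on the control diet. The change of JAK2 was -1.47 ± 0.68 (SE) on the log2(RPKM + 1) scale in the fit without a block, which leaves the pairing by ewe unused. That fit gave a 95% interval from -2.97 to 0.02 and an adjusted p of 0.329 by limma with Benjamini-Hochberg adjustment. With the sheep as a block, the same change had an SE of 0.51, an unadjusted p of 0.0126 and an adjusted p of 0.0983 (limma). In that fit 14.3% of tested transcripts were lower with an unadjusted p under 0.05. Without both libraries of sheep 3 the change was -1.32.

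The background put these values in place. Without the block, limma called 0 of 15891 transcripts, 0% of those tested, and 2464, 15.5%, had an unadjusted p under 0.05; JAK2 had 0.0532, STAT5A 0.268 and STAT5B 0.431. With the block it called 416 transcripts, 2.62%, and none was a transcript of JAK2, STAT5A or STAT5B. A lower value in all 3 sheep, as JAK2 and STAT5A had, was found in 26.2% of all tested transcripts, and a higher value in all 3 in 23%. A change lower than that of JAK2 was found in 7.48% of tested transcripts, whose median change was -0.12.

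STAT5A was the most abundant of the 3 genes per length, and on the deposited scale its linseed values were nearly equal in the 3 ewes. The transcript NM_001009402.1 (2820 nt) had 8.39, 9.22 and 29.4 RPKM in control sheep 1, 2 and 3, and 7.75, 7.24 and 7.68 RPKM in linseed sheep 1, 2 and 3. The 3 linseed libraries thus lay within 7.24 to 7.75 RPKM although their milk protein share of reads ran from 1.28% to 30.3%. The groups did not overlap, a pattern that 7.83% of tested transcripts showed in the lower direction. The highest linseed value was 7.75 and the lowest control value 8.39 RPKM. With milk protein reads left out of the totals, STAT5A had 16.2, 14.4 and 30.7 RPKM in control sheep 1, 2 and 3 and 11.1, 9.48 and 7.77 RPKM in linseed sheep 1, 2 and 3, so the linseed values were less alike and the gap between the groups wider.

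The difference in group means of STAT5A, 15.7 ± 11.9 RPKM (SD, n = 3) in controls against 7.55 ± 0.277 with linseed, came mostly from 1 library. Control RPKM was 1.08, 1.27 and 3.83 times the linseed value in sheep 1, 2 and 3. In sheep 1 the exact Poisson intervals overlapped, at 7.70 to 9.13 RPKM on the control diet (536 reads) and 6.36 to 9.36 RPKM with linseed (108 reads), so no difference was detectable at this depth in that ewe on the deposited scale. With milk protein reads left out of the totals, the same intervals were 14.8 to 17.6 and 9.12 to 13.4 RPKM and did not overlap. The change was -0.74 ± 0.64 (SE) on the log2 scale, with a 95% interval from -2.14 to 0.65 and an adjusted p of 0.566 (limma), or 0.393 with the sheep as a block. Without control sheep 3 it was -0.20.

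STAT5B was the least abundant of the 3 genes per length and had no common direction. The better covered transcript, XM_012186117.1 (2486 nt), had 0.302, 2.06 and 5.65 RPKM in control sheep 1, 2 and 3, and 0.651, 1.68 and 1.03 RPKM in linseed sheep 1, 2 and 3. It was higher with linseed in sheep 1 and lower in sheep 2 and sheep 3, and the groups overlapped. Its reads were few, from 8 in linseed sheep 1 to 149 in control sheep 3, and the means were 2.67 ± 2.73 RPKM (SD, n = 3) in controls and 1.12 ± 0.52 with linseed.

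The change of STAT5B was -0.52 ± 0.64 (SE) on the log2 scale, with a 95% interval from -1.92 to 0.88 and an adjusted p of 0.699 (limma), or 0.531 with the sheep as a block. The sign turned without control sheep 3 (0.06) and without both libraries of sheep 3 (0.08). The size also depended on the scaling, at -0.29 with quantile normalization, -0.28 with voom on the recovered reads and -1.15 with voom and the block. Without control sheep 1 it was -1.12.

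The other STAT5B transcript, XM_012186114.2 (5782 nt), had a mean of 0.113 RPKM and was not tested. It had 7, 8 and 5 reads in control sheep 1, 2 and 3 and 4, 7 and 5 reads in linseed sheep 1, 2 and 3. The longer of the STAT5B transcripts thus carried 36 reads against 295 for the shorter one. How the authors divided reads between overlapping transcripts, and between the paralogs STAT5A and STAT5B, is not given in the sources used here. In the RefSeq gene table of ARS-UI_Ramb_v3.0, STAT5B, STAT5A and STAT3 follow each other on 1 chromosome and the ends of STAT5A and STAT5B overlap, so reads from that overlap may not be told apart.

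**Figure D1:**
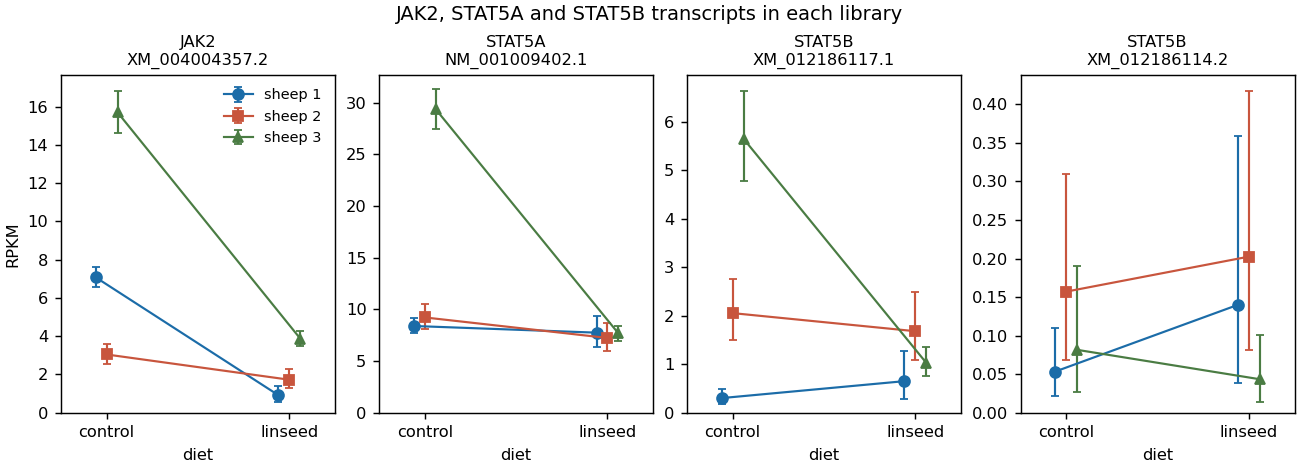
RPKM of the 4 transcripts (vertical axes, each from 0) on the control and linseed diets, with a line joining the libraries of each sheep and bars for the exact Poisson 95% counting interval. JAK2 is lower at the linseed end of each line, going from 7.07, 3.04 and 15.7 to 0.918, 1.72 and 3.87 RPKM, STAT5A meets at 7.24 to 7.75 RPKM with linseed, and control sheep 3 is the highest point for the 3 tested transcripts.

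Control sheep 3 had the highest value of the 6 libraries for all 3 tested transcripts. Its value was 2.22 times the next highest for JAK2, 3.18 times for STAT5A and 2.75 times for STAT5B. Of all tested transcripts, 41% were highest in this library. The lowest library differed from gene to gene: linseed sheep 1 for JAK2, linseed sheep 2 for STAT5A and control sheep 1 for STAT5B. From lowest to highest library, JAK2 spanned 17.1 times and STAT5B 18.7 times, against 4.06 times for STAT5A.

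With milk protein reads left out of the library total, JAK2 had 13.6, 4.76 and 16.4 RPKM in control sheep 1, 2 and 3, and 1.32, 2.26 and 3.92 RPKM in linseed sheep 1, 2 and 3. On that scale the groups did not overlap, as for 16.6% of tested transcripts in the lower direction. The change of JAK2 was -1.77 ± 0.60 (SE) with an adjusted p of 0.176 (limma). This scaling also moved the median change of all tested transcripts from -0.12 to -0.28. Relative to that median, JAK2 was at -1.36 on the deposited scale and -1.48 without milk proteins, STAT5A at -0.62 and -0.69, and STAT5B at -0.40 and -0.34.

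The RPKM ratio of STAT5A to STAT5B within a library does not depend on its total. Per length, STAT5A exceeded STAT5B 27.8, 4.49 and 5.19 times in control sheep 1, 2 and 3, and 11.9, 4.30 and 7.45 times in linseed sheep 1, 2 and 3. STAT5A was the higher of the pair in all 6 libraries, and sheep 1 had the largest ratio on both diets. The ratio was lower with linseed in sheep 1 and 2 and higher in sheep 3. On the log2(RPKM + 1) scale, where the pseudocount weighs on the low STAT5B values, the mean linseed minus control difference of STAT5A minus STAT5B was -0.22 (two-sided exact permutation p = 0.6, where 3 against 3 cannot give less than 0.1). On that scale the differences were -0.45, -0.12 and -0.10 in sheep 1, 2 and 3, so the sign in sheep 3 is not that of its RPKM ratio (two-sided exact sign-flip permutation p = 0.25, the smallest that 3 pairs allow). Without control sheep 1 the difference was 0.07.

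JAK2 and STAT5A did not keep a fixed proportion. STAT5A had 1.19, 3.03 and 1.87 times the RPKM of JAK2 in control sheep 1, 2 and 3, and 8.44, 4.20 and 1.98 times in linseed sheep 1, 2 and 3. The ratio was higher with linseed in every ewe, by little in sheep 3. JAK1, the kinase that serves many interferon and interleukin receptors, kept closer to JAK2, at 5.87, 10.4 and 12.5 times its RPKM in controls and 10.5, 8.83 and 13.0 times with linseed. Among the 6 measured STAT genes, STAT5A took 30.1%, 25.8% and 24.2% of their summed RPKM in control sheep 1, 2 and 3, and 34.3%, 27.3% and 16.2% in linseed sheep 1, 2 and 3.

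Of 16 other receptors that signal through JAK kinases, 6 were tested, and 0 passed with or without the block (limma). In the fit without the block, an unadjusted p under 0.05 was found for 1 of these 6, for 0 of 2 JAK kinases and 0 of 6 STAT genes. It was found for 2 of 11 inhibitors, 2 of 9 adaptors, 0 of 9 co-regulators and 0 of 12 STAT5 targets, the lists described next. Over all tested transcripts the share was 15.5%. Of the 6 receptors, 2 were lower and 1 was higher in all 3 sheep, against 26.2% and 23% of all tested transcripts. Their median change was -0.65. IL6ST (gp130), the shared signal transducer of the interleukin-6 family, had 8.90, 2.60 and 4.21 RPKM in control sheep 1, 2 and 3 and 0.295, 0.635 and 1.03 in linseed sheep 1, 2 and 3. Its groups did not overlap, as for 7.83% of all tested transcripts in the lower direction, and it was named for having the smallest p of its list. Its change was -1.81 ± 0.57 SE (limma adjusted p = 0.263, or 0.0624 with the block).

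IL7R, the interleukin-7 receptor of lymphocytes, had a change of -2.02 ± 1.16 (adjusted p = 0.400 by limma), and the interferon gamma receptor chain IFNGR1 had -1.02 ± 0.97. IL2RG, the common gamma chain of leukocyte interleukin receptors, was on the other side at 1.97 ± 1.11 (adjusted p = 0.394), with 18.2 RPKM in control sheep 1 and 237 to 928 RPKM in the other 5 libraries. The receptors of growth hormone (GHR) and leptin (LEPR) matched but stayed under a mean of 1 RPKM and were not tested.

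Of the 4 JAK kinases, only JAK1 and JAK2 matched a row by symbol. The levels of JAK3 and TYK2 are therefore not known here. Both JAK1 and JAK2 were lower with linseed in all 3 sheep, as were 26.2% of all tested transcripts. The sign of both fitted changes was the same under each of 6 scalings. JAK1 had 41.5, 31.6 and 196 RPKM in control sheep 1, 2 and 3 and 9.59, 15.2 and 50.4 RPKM in linseed sheep 1, 2 and 3. The groups overlapped, since linseed sheep 3 exceeded 2 controls. Its change was -1.65 ± 0.84 (SE; limma adjusted p = 0.361, or 0.0911 with the block).

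Of the 7 STAT genes, 6 were tested and 0 passed, and their median change was -0.63 against -0.12 over all tested transcripts. STAT3, which serves the interleukin-6 family and takes part in mammary involution, had -0.98 ± 0.64 (adjusted p = 0.453). STAT4, a lymphocyte factor of interleukin-12 signalling, had -1.61 ± 1.03 but was higher with linseed in sheep 1. STAT2, a factor of interferon signalling, had -0.22 ± 0.73, with a sign that turned with the length correction. These p-values are limma's, and whether the STAT genes differed from one another in their change was not tested.

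Of the 19 feedback inhibitors and phosphatases, 11 were tested and 0 passed with or without the block. Of these 11, 4 were lower and 1 was higher in all 3 sheep, against 26.2% and 23% of all tested transcripts. The median change of the 11 was -0.55. PTPN2, a phosphatase that removes phosphate from JAK1, JAK3 and STAT proteins, had 19.2, 27.8 and 39.7 RPKM in control sheep 1, 2 and 3 and 1.87, 4.73 and 26.7 in linseed sheep 1, 2 and 3 (-1.90 ± 0.82 SE; limma adjusted p = 0.304, or 0.0711 with the block). It was lower in every ewe, and the groups overlapped, because linseed sheep 3 exceeded control sheep 1.

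The suppressors of cytokine signalling diverged. SOCS4 had 3.00, 2.03 and 9.49 RPKM in control sheep 1, 2 and 3 and 0.565, 0.441 and 1.82 RPKM in linseed sheep 1, 2 and 3. Its groups did not overlap, as for 7.83% of all tested transcripts in the lower direction (-1.44 ± 0.62, limma adjusted p = 0.307). SOCS7 had -0.78 ± 0.65. SOCS1, a direct inhibitor of JAK kinases, had 0.711, 3.25 and 17.7 RPKM in controls and 27.1, 33.8 and 1.53 RPKM with linseed. It was thus far higher with linseed in sheep 1 and 2 and far lower in sheep 3, for a mean of 1.40 ± 1.09 (adjusted p = 0.530).

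**Figure D2:**
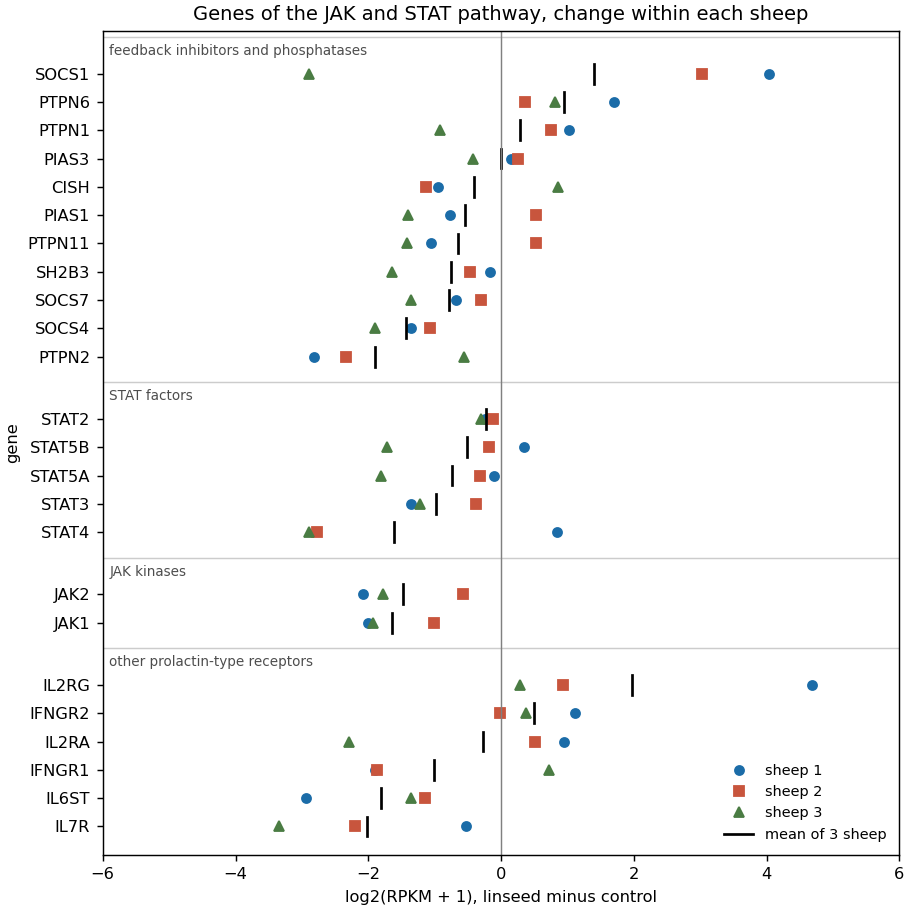
Linseed minus control difference on the log2(RPKM + 1) scale (horizontal axis) in each sheep for tested genes of 4 groups, with a bar at the mean of the 3 sheep. JAK1, JAK2, STAT3, STAT5A, IL6ST and PTPN2 lie left of 0 in all 3 sheep, IL2RG lies right of 0, and SOCS1 runs from 4.04 in sheep 1 to -2.89 in sheep 3.

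Of 21 adaptors and side branches of the receptor, 9 were tested and 0 passed. Their median change was -0.83. In all 3 sheep 4 of the 9 were lower and 1 was higher, against 26.2% and 23% of all tested transcripts. SHC1, an adaptor that links cytokine receptors to the Ras pathway, had 1.79, 2.76 and 11.4 RPKM in control sheep 1, 2 and 3 and 0.242, 0.666 and 0.759 RPKM in linseed sheep 1, 2 and 3. SOS1, the Ras activator downstream of such adaptors, had 2.50, 0.548 and 6.46 against 0.0952, 0.177 and 0.414 RPKM. Neither gene's groups overlapped, at changes of -1.72 ± 0.64 (limma adjusted p = 0.273, or 0.0658 with the block) and -1.49 ± 0.60 (0.291, or 0.0895). Such a gap in the lower direction was found in 7.83% of all tested transcripts, and both genes were named for their small p.

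Of 19 genes that act with STAT5 on mammary promoters, 9 were tested and 0 passed. ELF5, the alveolar transcription factor that cooperates with STAT5, had 42.8, 33.2 and 21.3 RPKM in control sheep 1, 2 and 3 and 36.4, 21.4 and 3.04 RPKM in linseed sheep 1, 2 and 3. It was lower in every ewe, most in sheep 3 (-1.10 ± 0.82, limma adjusted p = 0.509). The glucocorticoid receptor NR3C1, which binds STAT5 at casein promoters, had -1.55 ± 0.76 and was not lower in sheep 2. The mediator subunit MED1 had -1.37 ± 0.75, and CEBPB, a basic leucine zipper factor of casein promoters, had 1.30 ± 0.76 with 1 sheep lower.

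Of 18 genes known as STAT5 targets outside the milk proteins, 12 were tested and 0 passed. Of these 12, 6 were lower and 0 higher in all 3 sheep, against 26.2% and 23% of all tested transcripts. The median change of the 12 was -0.55. MYC, a driver of growth, had 26.6, 13.3 and 24.4 RPKM in control sheep 1, 2 and 3 and 5.66, 8.18 and 13.2 in linseed sheep 1, 2 and 3 (-1.18 ± 0.61, limma adjusted p = 0.364). ID2, an inhibitor of helix-loop-helix factors needed for alveolar growth, had 118, 93.8 and 117 against 63.1, 67.6 and 36.2 RPKM (-1.01 ± 0.58, adjusted p = 0.403). Neither gene's groups overlapped, as for 7.83% of all tested transcripts in the lower direction. CISH, the classical STAT5 feedback target, falls outside the rule for named genes and was chosen after its values were seen: it had 6.81, 4.12 and 4.02 RPKM in controls and 3.02, 1.34 and 8.14 with linseed, higher in sheep 3 and lower in the other two.

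Milk protein genes are the best known output of STAT5 in the gland. Of 13 in the list, 11 were tested and 0 passed (limma), with a median change of -1.71. An unadjusted p under 0.05 was found for 2 of the 11, against 15.5% of all tested transcripts. In all 3 sheep 7 were lower and 0 higher, against 26.2% and 23% of all tested transcripts. The 4 caseins summed to 363462, 276062 and 29721 RPKM in control sheep 1, 2 and 3 and to 68478, 97490 and 7439 RPKM in linseed sheep 1, 2 and 3. The casein sum was lower with linseed in every ewe, as were JAK2 and STAT5A. The whey protein genes PAEP and LALBA instead rose in sheep 1 and 2 and fell in sheep 3. PAEP went from 64305 to 268127, 51089 to 140693 and 9885 to 4634 RPKM (0.81 ± 1.31 SE, limma adjusted p = 0.780). LALBA went from 3200 to 7805, 8977 to 12368 and 575 to 384 RPKM (0.39 ± 1.29, adjusted p = 0.899), and its mean change turned sign with the scaling. Between ewes the order differed: control sheep 3, with the highest JAK2, STAT5A and STAT5B, had the lowest casein sum of the controls. Between linseed sheep 2 and 3, the casein sum differed from 97490 to 7439 RPKM while STAT5A was 7.24 and 7.68 RPKM on the deposited scale. With milk protein reads left out of the totals, STAT5A was 9.48 RPKM in linseed sheep 2 and 7.77 RPKM in linseed sheep 3.

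Markers of several cell types differed between libraries. The defining epithelial markers were present in every library, 8 of 17 being measured, with EPCAM at 214, 90.9 and 17.8 RPKM in control sheep 1, 2 and 3 and 23.5, 63.4 and 4.37 RPKM in linseed sheep 1, 2 and 3. Their mean log2(RPKM + 1) was 6.76, 6.07 and 4.82 in controls and 5.74, 6.76 and 3.36 with linseed, and their summed level ran from 451 to 1317 RPKM in controls and 113 to 1527 with linseed. No epithelial marker was called without the block. With it, CD24, a surface protein of epithelial and some immune cells, was called lower (-2.44 ± 0.58 SE, limma adjusted p = 0.0461, both with the block). The same fit called 1.34% of all tested transcripts lower. The CD24 call was lost with the block and milk proteins left out (0.0506), voom (0.0599) or the length correction (0.0963). Of the 8 markers, 3 were lower and 0 higher in all 3 sheep, against 26.2% and 23% of all tested transcripts. The keratin KRT8 went the other way in sheep 1 and 2, from 17.6 to 355 and from 98.6 to 500 RPKM, but not in sheep 3, from 54.5 to 21.3 RPKM (1.76 ± 1.10, adjusted p = 0.434 by limma).

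Pan-leukocyte markers, 5 of 8 measured, summed to 144, 1980 and 8207 RPKM in control sheep 1, 2 and 3 and to 1415, 1638 and 7436 RPKM in linseed sheep 1, 2 and 3. Neutrophil markers (5 of 12; MMP8 at 0 in all libraries) summed to 422 to 954 RPKM in controls and 2314 to 3187 RPKM with linseed, and macrophage markers (9 of 14) to 117 to 1267 and 920 to 2101 RPKM. The neutrophil sum was higher with linseed in every ewe. Each ewe showed a higher value for 4 macrophage markers and a lower one for 2, and the median change of 0.18 over that list changed sign with 3 of the 5 other scalings. TREM2, a receptor of lipid-laden macrophages, was called higher with the block (3.73 ± 0.70 SE, limma adjusted p = 0.0401) and with milk proteins left out as well (0.0472). The fit with the block called 1.28% of all tested transcripts higher. TREM2 was not called without the block, or with the block and voom (0.0599) or the length correction (0.0944). T and NK cell markers (8 of 12) summed to 10.5, 192 and 707 RPKM in controls and 86.6, 70.1 and 156 with linseed, so control sheep 3 was the highest library here too. B and plasma cell markers (5 of 7) summed to 1.42 to 30.3 RPKM in controls and 6.93 to 26.5 with linseed. The part of these cell types in the JAK2 and STAT5 values was not tested.

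Set against the mean log2 level of the epithelial markers in the same library, JAK2 had linseed minus control differences of -1.05, -1.25 and -0.31 in sheep 1, 2 and 3. STAT5A had 0.92, -0.996 and -0.35 on the same scale, and STAT5B 1.36, -0.87 and -0.25. Only JAK2 of the 3 genes kept its sign in every ewe against this reference. Against the pan-leukocyte markers JAK2 had -4.78, -0.33 and -1.55, and STAT5A was also lower in every ewe (-2.81, -0.07 and -1.59). Against the neutrophil markers and the B and plasma cell markers, all 3 genes were lower in all 3 sheep. Against the macrophage markers all 3 genes were higher in sheep 2, JAK2 by 0.16, and lower in sheep 1 and 3. Against the T and NK cell markers JAK2 had -3.29, 0.79 and 0.49, and none of the 3 genes kept its sign.

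**Figure D3:**
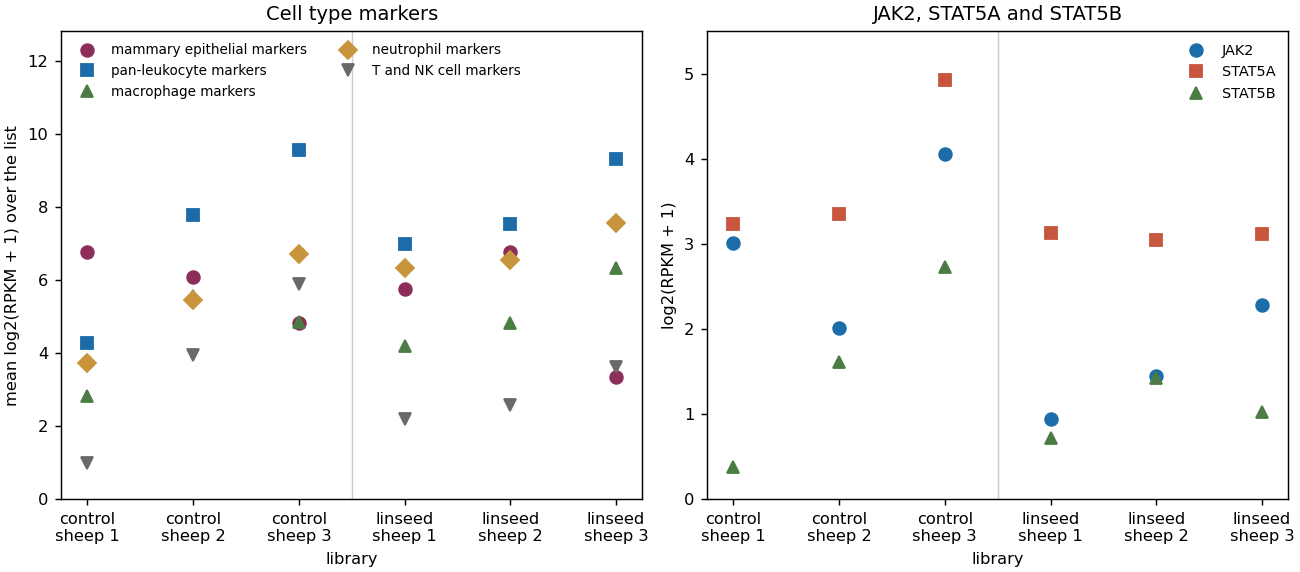
Mean log2(RPKM + 1) of 5 marker lists (left) and log2(RPKM + 1) of JAK2, STAT5A and STAT5B (right) in each of the 6 libraries. Control sheep 3 is highest for the 3 genes and for T and NK cell markers (5.88), while linseed sheep 3 has similar pan-leukocyte markers (9.32 against 9.54) and STAT5A at the level of the other linseed libraries.

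The genes whose pattern was most like that of each transcript were ranked by Pearson's r of log2(RPKM + 1) over the 6 libraries, among 5975 genes. The libraries come from 3 ewes and share totals, so these are descriptions. For JAK2 they were POT1 (a telomere protein, r = 0.996), FMR1 (an RNA-binding protein, 0.994), STAT3 (0.994), KLF6 (a zinc finger factor, 0.994) and SFT2D2 (a vesicle transport protein, 0.993). STAT3, at 13.1, 8.30 and 26.6 RPKM in controls and 4.51, 6.20 and 10.8 with linseed, was thus among them, while STAT5A stood at rank 1337 (r = 0.806) and STAT5B at r = 0.532.

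For STAT5A the 5 genes were RSBN1 (r = 0.993), the pyruvate dehydrogenase phosphatase PDP1 (0.992), ANKUB1 (0.991), the histone H2A deubiquitinase MYSM1 (0.991) and the peptidase DPP8 (0.989). All 5 had their highest value in control sheep 3, from 3.99 RPKM for ANKUB1 to 9.34 RPKM for RSBN1. For STAT5B they were the integrin ITGB3 (r = 0.983), glutamate dehydrogenase GLUD1 (0.980), LOC101122347 (0.980), SPRYD4 (0.966) and TMT1A (0.966). STAT5A and STAT5B correlated at r = 0.840, rank 227 from STAT5B and 504 from STAT5A.

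Over 21 other settings of scaling, filter, block and libraries, the change of JAK2 ran from -1.98 to -0.96 and 0 of its adjusted p-values (0.0818 to 0.917, limma) passed. The value nearest to 0 came without control sheep 3 (-0.96), and a correction for transcript length gave -1.05 ± 0.45. STAT5A ran from -1.06 to -0.20, its 2 values nearest to 0 being those without control sheep 3 and without sheep 3 (-0.21).

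**Figure D4:**
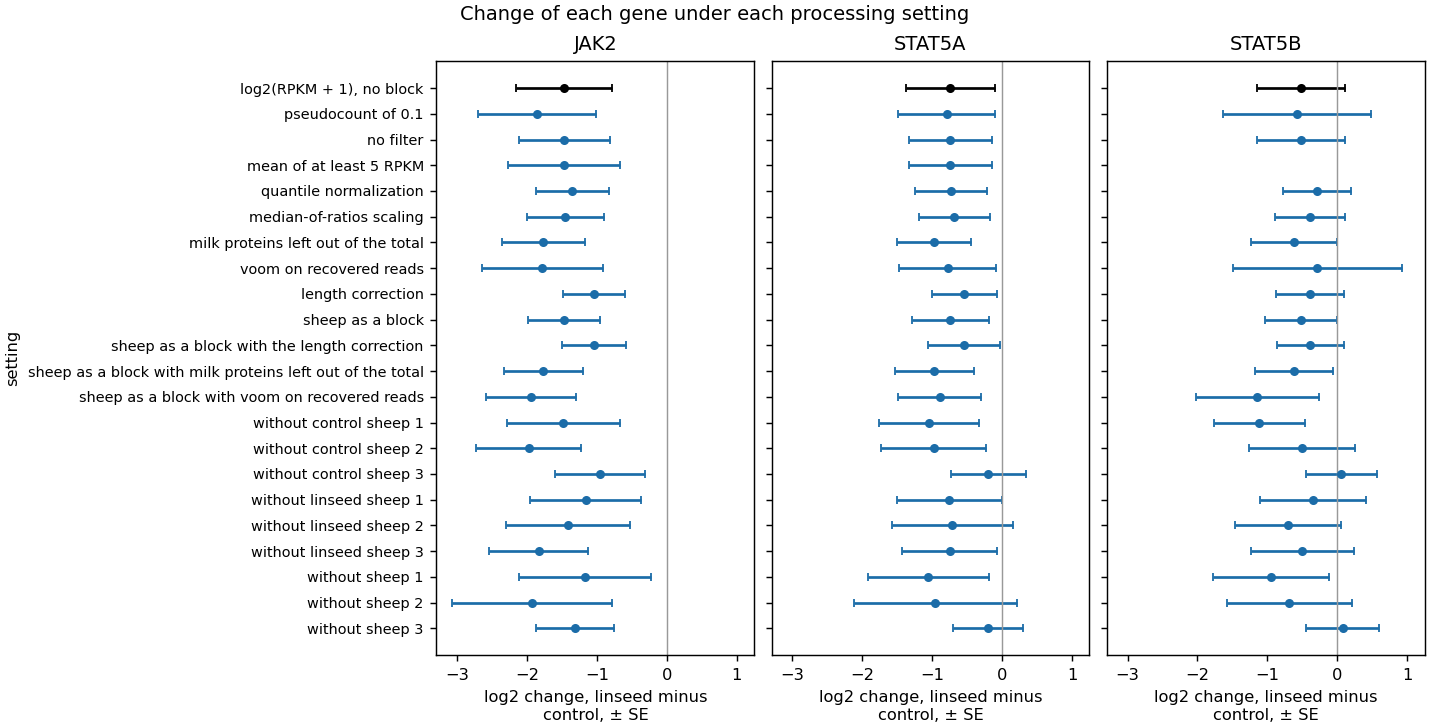
Log2 change, linseed minus control, ± SE (horizontal axis) of JAK2, STAT5A and STAT5B under each setting, with the reported fit in black at the top. JAK2 stays below 0 in all 21 other settings, whereas STAT5A nears 0 (-0.20) and STAT5B crosses it (0.06) without control sheep 3.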

How the data were processed

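RNA of milk somatic cells was sequenced in 6 libraries, 3 control and 3 linseed, from the same 3 sheep; the animal identifiers pair the numbers. The authors deposited RPKM values with decimal commas for 49705 RefSeq transcripts. The submitters' processing notes list Trimmomatic 0.33, a read trimmer; aligner, genome build, annotation, strandedness and counter are not given in the sources used. Read counts, lengths and totals were recovered from the RPKM steps (tolerance 0.002 reads), and the solved reads summed to 99.4% to 99.8% of the totals; the method was tested on simulated data. Gene symbols were taken from RefSeq's table for ARS-UI_Ramb_v3.0, used for names and neighbours: 15836 transcripts (31.9%) matched. PRLR matched no row.

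Values were taken as log2(RPKM + 1), so changes of low transcripts are understated. Transcripts averaging 1 RPKM or more were compared with limma 3.58.1 (R 4.3.3) with a mean-variance trend, without a block; Benjamini-Hochberg adjusted p under 0.05 was called. The deviations of the 2 libraries of a sheep from their group means correlated at r = 0.18, 0.25 and 0.40 in sheep 1, 2 and 3. Pairs of different sheep ran from -0.40 (control sheep 3 with linseed sheep 2) to 0.24 (control sheep 1 with linseed sheep 2). Control sheep 1 was thus closer to linseed sheep 2 than to its own linseed library, and only sheep 3 stood apart. Ratios used exact permutation tests. Each gene of a list entered by its most abundant transcript. The genes named were all transcripts of the 4 genes, up to 4 of smallest p in each of 14 lists, the JAK and STAT lists in full, and the 5 most alike in pattern to each member. Marker lists beyond CD24, EPCAM, KRT8, TREM2, S100A8 and S100A9 are given as sums or mean levels. GHR, LEPR, CISH, PAEP and LALBA are named although they fall outside this rule. Some genes that this rule takes are left out of the text. The members and lists were chosen with earlier results of these data known.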

Additional observations from a re-analysis of the deposited data

How the results depend on the processing

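Without the block 0 transcripts were called; with the replicate block by sheep 416 were (203 higher, 213 lower), and 152 (36 higher, 116 lower) with the block and milk proteins left out of the total. By limma, the block with a length correction, the block with voom on recovered reads and voom without the block called 0, with 3918, 4175 and 2195 transcripts at an unadjusted p under 0.05. The 2 combinations of the block with milk proteins left out or with voom were chosen after seeing the data. Of JAK2, STAT5A and STAT5B, 0 transcripts were called in each of the 21 other settings, the replicate block included. In the lists, the block moved 2 counts of calls from 0 to 1, for epithelial and macrophage markers. Leaving out libraries, in turn or by sheep, gave -1.98 to -0.96 for JAK2, -1.06 to -0.20 for STAT5A and -1.12 to 0.08 for STAT5B, and -0.48 to 0.07 for the STAT5A minus STAT5B level. STAT5B turned sign without control sheep 3 (0.06) and without sheep 3 (0.0774), and the STAT5A minus STAT5B level turned without control sheep 1 (0.0736); the cause was not tested. The remaining settings gave -1.94 to -1.05, -0.97 to -0.54, -1.15 to -0.28 and -0.44 to -0.16 for the same 4 results. STAT5B had no value at a minimum mean of 5 RPKM, and the planned PRLR results have none. Depth limited STAT5B most, with 8 reads in linseed sheep 1.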
